A study of Homo sapiens with 12 samples.

Results

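The human mitochondrial genome holds 37 genes, all of which were measured here. They were taken as every row of the authors' gene table that lies on the mitochondrial chromosome, which is 37 of 60612 genes. Of these, 13 are messenger RNAs, 2 are ribosomal RNAs and 22 are transfer RNAs. Polyadenylated RNA was sequenced from LX2, an established human line derived from hepatic stellate cells and of wild-type genotype, in 12 libraries that fall into 3 groups of 4. Cells had been seeded for 24 h and then starved of serum for 16 h in the protocol that all groups share. Control cells were left untreated; TGFb cells received transforming growth factor beta at 5 ng/ml for 16 h; the third group was first exposed for 3 h to STINGX, a compound known here by its code name, at 10 µM, and then given the same TGFb. No group received STINGX alone, so the compound was measured only together with TGFb. The study's title links DNA of mitochondria with the activation of stellate cells through STING, a protein that acts in the sensing of DNA in the cytosol.

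Mitochondrial DNA is a small circle whose strands are named heavy and light. Each strand is transcribed from end to end into a long precursor, and the transfer RNAs that lie between the other genes are cut out, which frees the messenger and ribosomal RNAs. The 13 messenger RNAs encode core subunits of the respiratory chain: 7 subunits of complex I (NADH dehydrogenase), 1 of complex III (the cytochrome bc1 complex), 3 of complex IV (cytochrome c oxidase) and 2 of complex V (ATP synthase). Transcription of the heavy strand gives 28 genes (12 messenger, both ribosomal and 14 transfer RNAs), and the light strand gives 9 (MT-ND6 and 8 transfer RNAs). Most mitochondrial messenger RNAs carry a poly(A) tail, MT-ND6 is known to carry little or none, ribosomal RNAs carry short ones, and mature transfer RNAs end in CCA. Since the libraries were selected for poly(A), a change in amount and a change in tail length cannot be told apart. In bulk RNA, fewer cells, fewer genomes per cell and less RNA per genome cannot be told apart either.

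All 37 genes had counts in every library, the lowest being 32, and all passed the filter on low counts. Library totals ran from 54035320 to 70787741 estimated counts, and the number of fragments behind a count is not known because the counts were derived from coverage. The 16 stellate cell markers matched 17 gene rows, of which 15 were tested. The markers' summed level was 7386 to 7635 CPM (counts scaled to library size) in control. It was 12514 to 12639.7 CPM with TGFb and 6407 to 6961 with STINGX and TGFb, with DES and LRAT at 0. The sums of 10 hepatocyte markers stayed between 4.08 and 10.5 CPM, with ALB, APOB, FGB and TTR at 0, and those of 8 endothelial markers between 10.7 and 14.5 CPM, with LYVE1 at 0. The 9 macrophage and leukocyte markers summed to 74.1 to 79.3 CPM in control, 29.04 to 33.8 with TGFb and 78.9 to 94.2 with STINGX and TGFb, with CD3E and MS4A1 at 0; for 6 cholangiocyte and epithelial markers the ranges were 222 to 250.0, 256 to 326 and 151 to 162 CPM, with none at 0. These sums move with the groups, but the members of a list did not all move together. With TGFb, 8 of 15 tested stellate cell markers rose and 5 fell (adjusted p under 0.05, edgeR). Of 4 tested macrophage and leukocyte markers, 1 rose and 3 fell. Of all genes tested, 13.2% rose and 12.8% fell. Single genes held much of a sum: with TGFb, COL1A1 stood at 6367 ± 121 CPM and CD68 at 24.4 ± 2.68 (TMM-scaled). The part of these sums in the results below was not tested.

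Counts of MT-ATP6, a subunit of ATP synthase, did not follow the groups. They were 631532, 188465, 636048 and 611916 in the 4 control libraries, 163934, 526438, 127295 and 131910 with TGFb, and 464781, 461394, 383540 and 415515 with STINGX and TGFb. Control replicate 2 and TGFb replicates 1, 3 and 4 thus lay far below the other 8 libraries, so the share of the genome is given below with and without this gene.

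Neighbouring mitochondrial genes can share bases, which bears on how reads between them are assigned. MT-ATP8 and MT-ATP6 share 46 bases (positions 8527 to 8572 of the mitochondrial chromosome, GRCh38), and MT-ND4L and MT-ND4 share 7 (10760 to 10766). Both junctions are shown on the plus strand from GENCODE release 29, with 20 flanking bases on each side and the shared bases in capitals; the capitals open with the ATG that starts the downstream reading frame.
MT-ATP8 and MT-ATP6: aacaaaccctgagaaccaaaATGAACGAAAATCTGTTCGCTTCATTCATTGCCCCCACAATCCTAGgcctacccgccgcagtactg
MT-ND4L and MT-ND4: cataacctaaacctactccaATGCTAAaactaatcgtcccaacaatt
A read inside the capitals can belong to either gene, and how such reads were divided is not known from the labels.

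Levels per length differed among the mitochondrial messenger and ribosomal RNAs. On the FPKM scale (fragments scaled to gene length and library size), control levels were highest for MT-CO1, the catalytic subunit of complex IV, at 13805 ± 256 (mean ± SD, n = 4 here and throughout). Next stood MT-CO2 at 11670 ± 557 and MT-CO3 at 10038 ± 490.1, the other complex IV subunits. MT-ND4 (9320.1 ± 338) and MT-ATP8 (8739 ± 797) followed; MT-CO3, MT-ATP6, MT-ND4 and MT-ATP8 each overlapped with a neighbour in the order, so that order is not resolved. Lower, and apart from each other, were MT-ND4L (6049 ± 424), MT-CYB (5023 ± 189.5) and MT-ND2 (4671 ± 152). MT-ND1, the ribosomal RNA MT-RNR2, MT-ND6, MT-ND5 and MT-ND3 formed a chain from 3766 down to 2961 FPKM in which each overlapped with its neighbour. Lowest was the other ribosomal RNA, MT-RNR1, at 1385 ± 206 FPKM. MT-RNR1 was lowest and MT-CO1 highest in all 3 groups. With STINGX and TGFb, MT-ATP6 (8079 ± 161 FPKM) came next to MT-CO1. In the 3 control libraries other than replicate 2, MT-ATP6 stood at 11301 to 12220 FPKM beside MT-CO2 at 11116 to 12222, and in TGFb replicate 2 at 10520 beside 9113. MT-ND4 (6993 ± 121), MT-CO2 (6762 ± 169), MT-ATP8 (6445 ± 264) and MT-CO3 (6121 ± 370.2) followed, each overlapping with the next, so their order is not resolved. In that group MT-RNR2, at 3809.6 ± 61.4, lay above MT-CYB at 3655 ± 47.1, the reverse of their order in the other groups.

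**Figure D1:**
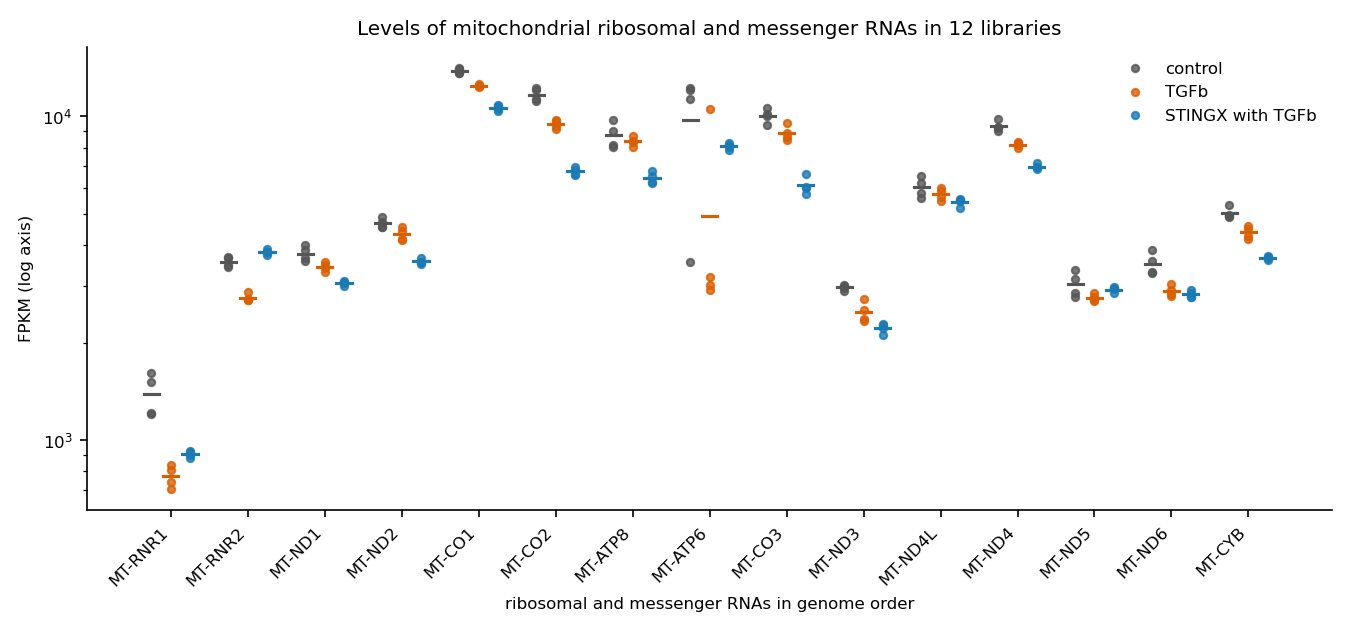
FPKM on a log axis of the 2 ribosomal and 13 messenger RNAs in genome order; points are single libraries and short lines are means of 4 libraries in control (grey), TGFb (orange) and STINGX with TGFb (blue). MT-CO1 sits highest and MT-RNR1 lowest in every group, and MT-ATP6 splits within control and within TGFb.

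The share of all counts taken by the mitochondrial genome, leaving out MT-ATP6, was 9.93 ± 0.279% in control, 8.65 ± 0.0983% with TGFb and 7.60 ± 0.150% with STINGX and TGFb. The ranges were 9.73 to 10.3%, 8.54 to 8.76% and 7.50 to 7.82%, so no 2 groups overlapped. With MT-ATP6 they were 10.0 to 11.3%, 8.77 to 9.46% and 8.16 to 8.46%, and did not overlap either. Complex IV took 4.42 ± 0.0992%, 3.87 ± 0.0818% and 3.07 ± 0.0873% of all counts, complex I 3.74 ± 0.182%, 3.34 ± 0.0409% and 3.02 ± 0.0516%, and the single complex III gene 0.682 ± 0.0263%, 0.593 ± 0.0249% and 0.496 ± 0.00680%, with no overlap between groups for any of these complexes. Complex V, which holds MT-ATP6, took 1.01 ± 0.345%, 0.602 ± 0.305% and 0.813 ± 0.00793%, and its groups overlapped. Ribosomal RNAs took 0.817 ± 0.0466%, 0.597 ± 0.0178% and 0.809 ± 0.0137%: TGFb libraries were all lowest, while control (0.773 to 0.869%) and STINGX with TGFb (0.795 to 0.828%) overlapped. Transfer RNAs took 0.0502 ± 0.00187%, 0.0458 ± 0.00191% and 0.0425 ± 0.00154%. Genes of the light strand took 0.258 ± 0.0177%, 0.215 ± 0.00771% and 0.209 ± 0.00457%, with control above both other groups and those 2 overlapping.

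TGFb against control asks how the mitochondrial RNAs respond to the fibrogenic cytokine. Both ribosomal RNAs, 6 of 13 messenger RNAs and 3 of 22 transfer RNAs fell, and none rose, against 13.2% of all genes tested that rose (adjusted p under 0.05, edgeR's quasi-likelihood test with Benjamini-Hochberg adjustment over 21328 genes). The called messenger RNAs were MT-CO1 and MT-CO2 of complex IV, MT-ND3, MT-ND4 and MT-ND6 of complex I, and MT-CYB of complex III. Of these, MT-CO1 changed least and fell by 6.02%, MT-CO2 changed most and fell by 15.5%, and the ribosomal MT-RNR1 fell by 41.8%. The 11 of 37 genes that fell compare with 12.8% of all genes tested, or 17.0% of the genes with a mean of at least 100 CPM. In CPM, the scale used for such counts here and in the comparisons below, all 4 TGFb libraries lay below all 4 control libraries for 10 genes (13.1% of all genes tested). They lay above them for 3 (13.9%), and these 3 overlapped in FPKM. The median log2 change was -0.069 over the 37 genes and -0.0040 over all genes tested. By strand, 7 of 28 heavy-strand and 4 of 9 light-strand genes fell; none of the 14 heavy-strand transfer RNAs was called. Leaving out 1 library ended the calls of MT-ND3 (adjusted p = 0.0556 without TGFb replicate 3 and 0.0541 without TGFb replicate 4) and of the transfer RNA MT-TY (0.0506 without TGFb replicate 1), and added MT-CO3 (0.0365 without control replicate 3) and MT-TC (0.0311 without TGFb replicate 2). By library size alone MT-CO3 (adjusted p = 0.0192) and MT-TC (0.0478) were also called lower. In the authors' FPKM values, limma called 8 to 10 of the 37 lower, without MT-CO1 (adjusted p = 0.216 to 0.508) and MT-ND4 (0.0805 to 0.268). With no filter on low counts, MT-CO2 (0.0818) and MT-CYB (0.113) were lost there too.

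STINGX with TGFb against TGFb asks what the compound changes in TGFb-treated cells. With the compound, 11 of 13 messenger RNAs and 11 of 22 transfer RNAs were lower, and 1 gene, the ribosomal RNA MT-RNR2, was higher. Among messenger RNAs MT-CO3 fell by 37.3%, MT-CO2 fell by 35.1% and MT-ATP8 fell by 30.1%, the largest falls, while MT-ND6 fell by 11.3% and MT-ND4L fell by 13.9%. Lower calls made up 13.8% of all genes tested and 37.8% of those with a mean of at least 100 CPM, and higher calls 13.7% of all. In CPM the groups did not overlap for 23 genes below (15.7% of all genes tested) and 1 above (15.9%). MT-ND5, among those below, lay above in FPKM. The median log2 change was -0.36 over the 37 genes against 0.0063 over all genes. All 3 complex IV genes, MT-CYB, 6 of 7 complex I genes and 1 of 2 complex V genes fell; 19 of 28 heavy-strand and 3 of 9 light-strand genes fell. The count rests in part on scaling: by library size alone, which moves the median of all genes to 0.147, 15 of the 37 were lower and 1 higher (over all genes 1890 lower and 4997 higher, against 2933 and 2931 under TMM scaling), and limma on FPKM values called 10 to 13 lower and 2 higher. In these fits, among messenger and ribosomal RNAs, MT-ND2, MT-CO2, MT-CO3, MT-ATP8 and MT-CYB remained called lower and MT-RNR2 higher.

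STINGX with TGFb against control sets the combined treatment against untreated cells. Under both, 12 of 13 messenger RNAs, MT-RNR1 and 11 of 22 transfer RNAs were lower, and none was higher. MT-CO2 fell by 45.1%, MT-CO3 fell by 42.2%, MT-CYB fell by 31.0% and MT-ND5 fell by 8.71%. The 24 lower calls compare with 17.0% of all genes tested and 35.9% of those with a mean of at least 100 CPM, and the groups did not overlap for 25 genes, all below (16.7% of all genes tested; 17.8% lay above). Higher calls made up 17.2% of all genes. The median log2 change was -0.35 against 0.0042 over all genes. The fall of MT-ND5 was not called after leaving out control replicate 3 (adjusted p = 0.0670) or 4 (0.0556) or STINGX with TGFb replicate 1 (0.0571), 2 (0.0758) or 3 (0.0615), and that of MT-TL2 without control replicate 1 (0.0502) or STINGX with TGFb replicate 1 (0.0598). In FPKM values MT-ND5 (log2 -0.051, adjusted p = 0.615 to 0.723) and MT-ND4L (-0.15, 0.156 to 0.336) were not called. Each pair of the 3 comparisons shares a group of 4 libraries, so their results are not independent of one another.

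**Figure D2:**
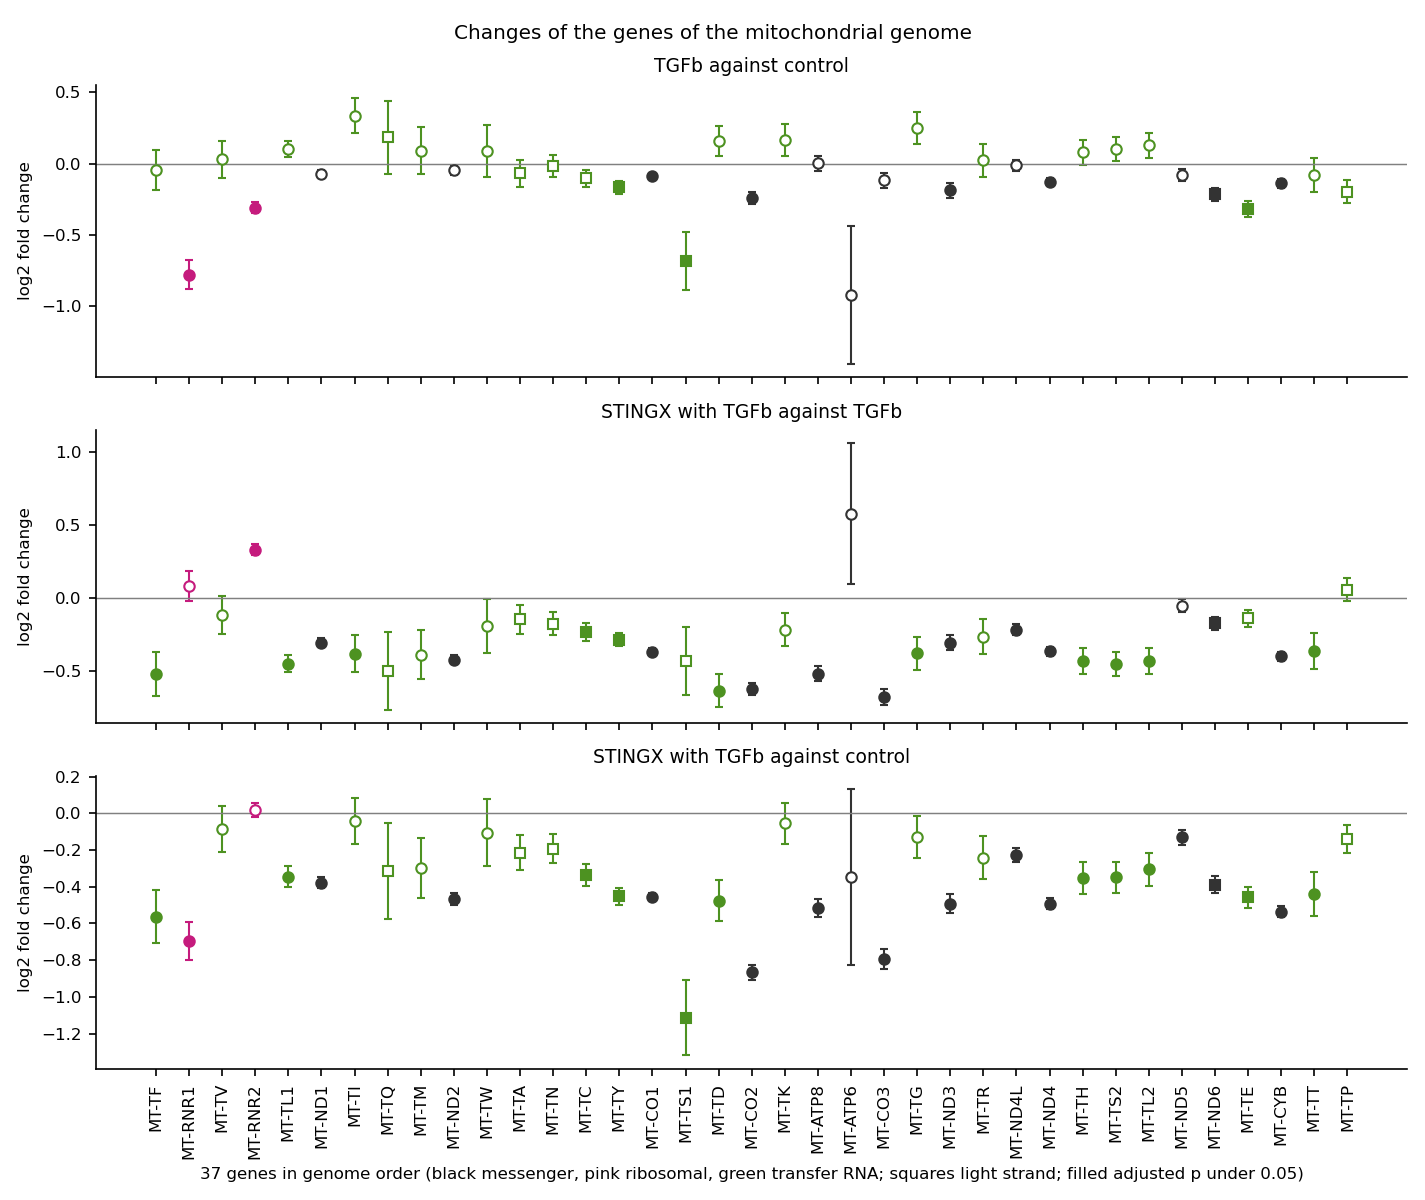
Log2 fold change with its SE for the 37 genes in genome order, 1 panel per comparison; black points are messenger, pink ribosomal and green transfer RNAs, squares are light-strand genes, and filled symbols have an adjusted p under 0.05. Called genes lie below 0 apart from MT-RNR2 in the middle panel, and MT-ATP6 has an SE of 0.48 in each panel.

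Ribosomal RNAs form the core of the mitochondrial ribosome: MT-RNR1 is the 12S RNA of its small subunit (positions 648 to 1601) and MT-RNR2 the 16S RNA of its large subunit (1671 to 3229), and only the transfer RNA MT-TV lies between them. MT-RNR1 stood at 1754, 1864, 1352 and 1357 CPM in control, at 972, 1005, 832 and 875 with TGFb and at 973, 959, 984 and 994 with STINGX and TGFb. Every control library thus lay above every other library, and in CPM the 2 treated groups overlapped. They were apart in FPKM, where MT-RNR1 was 706 to 839 with TGFb and 882 to 922 with STINGX and TGFb. Its log2 change was -0.78 ± 0.10 (SE) with TGFb (adjusted p = 1.38e-04, edgeR) and 0.086 ± 0.10 between the treated groups (adjusted p = 0.594). MT-RNR2 stood at 6909, 6982, 6248 and 6389.8 CPM in control, 5310, 5610, 5220.1 and 5235 with TGFb and 6614, 6770.3, 6654 and 6846 with STINGX and TGFb. TGFb libraries were all lowest, and the other 2 groups overlapped. The log2 change of MT-RNR2 was -0.31 ± 0.039 with TGFb (adjusted p = 5.75e-05, edgeR), 0.33 ± 0.039 for STINGX with TGFb against TGFb (adjusted p = 3.30e-05) and 0.019 ± 0.039 against control (adjusted p = 0.747; this last value was -0.031 under upper quartile scaling, and 0.098 and called higher by library size alone, adjusted p = 0.0175). In FPKM, MT-RNR2 was 3426 to 3681 in control and 3738 to 3887 with STINGX and TGFb, which do not overlap.

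The 2 ribosomal RNAs therefore changed unequally, which their ratio within a library shows without any scaling. Counts of MT-RNR2 per count of MT-RNR1 were 3.94, 3.75, 4.62 and 4.71 in control, 5.46, 5.58, 6.28 and 5.99 with TGFb and 6.80, 7.06, 6.76 and 6.89 with STINGX and TGFb. The 3 groups do not overlap, control being lowest and STINGX with TGFb highest. The mean log2 ratio differed by 0.46 between TGFb and control, by 0.24 between STINGX with TGFb and TGFb, and by 0.70 between STINGX with TGFb and control. Each difference reached p = 0.0286 in a two-sided exact permutation test, the smallest that 4 against 4 libraries allow, and an adjusted p of 0.0490 over the 12 ratio tests made.

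Complex I takes electrons from NADH into the chain, and its 7 mitochondrial genes are spread along the genome. MT-ND4 (positions 10760 to 12137), the most abundant of them per length, stood at 15481, 15099, 14852 and 15909 CPM in control, 14443, 14286, 13549 and 13869 with TGFb and 10883, 10817, 10759.8 and 11157 with STINGX and TGFb. The groups did not overlap in any comparison. Its log2 change was -0.13 ± 0.029 with TGFb (adjusted p = 0.00504, edgeR) and -0.36 ± 0.029 for the compound in TGFb-treated cells (adjusted p = 9.06e-07). In FPKM values the change with TGFb was -0.19 and not called (limma, adjusted p = 0.0805 to 0.268). With no filter on low counts, the change with the compound was not called there either (-0.23, adjusted p = 0.150, limma). MT-ND1 and MT-ND2, whose genes follow MT-RNR2 on the heavy strand, were not called with TGFb (log2 -0.073 ± 0.030 and -0.049 ± 0.033), but by library size alone both were called lower (-0.14 and -0.11, adjusted p = 0.0115 and 0.0225), and by upper quartile scaling MT-ND1 was (-0.11, adjusted p = 0.0150). Both fell with the compound (-0.31 ± 0.030 and -0.42 ± 0.033), though MT-ND1 was not called in FPKM values (-0.17, adjusted p = 0.0516 to 0.138). MT-ND3 fell with TGFb (-0.19 ± 0.052, adjusted p = 0.0170 by edgeR, with overlapping groups) and with the compound (-0.30 ± 0.052; -0.16 and not called in FPKM values, adjusted p = 0.0690 to 0.151). MT-ND4L, whose end overlaps the start of MT-ND4, had log2 changes of -0.012 ± 0.039 with TGFb, not called, and -0.22 ± 0.039 with the compound (called, but -0.075 by library size alone and -0.077 in FPKM values, adjusted p = 0.265 to 0.651).

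In the edgeR fit, MT-ND5 changed least among the complex I genes when the compound was added. Its CPM values were 6265, 6095, 6673 and 7165 in control, 6146, 6105, 6173 and 6350.4 with TGFb and 6010.4, 5864, 5979 and 6063 with STINGX and TGFb. The 4 values with the compound lay just below those with TGFb. In FPKM the order was the reverse: the compound libraries (2841 to 2962) lay above those with TGFb (2685 to 2838). The log2 change was -0.051 ± 0.043 (adjusted p = 0.427, edgeR). It was positive, at 0.090, when scaled by library size alone and at 0.087 in FPKM. Against control the edgeR log2 change was -0.13 ± 0.043 (adjusted p = 0.0305). MT-ND6 (14149 to 14673) is read from the other strand, next to MT-ND5 (12337 to 14148), and is the only light-strand messenger RNA. Whether counting used the strand is not known from the labels, so in the values of MT-ND5 and MT-ND6 and in their ratio, reads of a gene and reads from its opposite strand cannot be told apart. MT-ND6 stood at 2106, 2093, 2190.1 and 2392 CPM in control, 1918, 2002, 1831 and 1808 with TGFb and 1645, 1657, 1678 and 1728 with STINGX and TGFb, in 3 groups that do not overlap. Its treated groups did overlap in FPKM, at 2789 to 3040 with TGFb and 2760 to 2914 with STINGX and TGFb. The log2 change was -0.22 ± 0.046 with TGFb (adjusted p = 0.00364, edgeR), -0.17 ± 0.046 for the compound in TGFb-treated cells (adjusted p = 0.0139, but not called by library size alone or in FPKM values, at 0.687 to 0.850) and -0.39 ± 0.046 against control.

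Complex III is represented by 1 mitochondrial gene, MT-CYB (positions 14747 to 15887), which encodes cytochrome b. It stood at 6823, 6783, 6638 and 7127 CPM in control, 5980.2, 6132, 6305 and 6452 with TGFb and 4648, 4753, 4711 and 4764 with STINGX and TGFb. These 3 groups do not overlap. MT-CYB fell with TGFb (log2 -0.14 ± 0.030, adjusted p = 0.00409 by edgeR) and was lower again with the compound (-0.40 ± 0.030, adjusted p = 6.07e-07). The fall with TGFb was not called in FPKM values with no filter on low counts (log2 -0.20, adjusted p = 0.113, limma).

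Complex IV passes electrons to oxygen, and MT-CO1 (positions 5904 to 7445), MT-CO2 (7586 to 8269) and MT-CO3 (9207 to 9990) encode its core. MT-CO1 stood at 25447, 25464, 25170.1 and 25595 CPM in control, 23973, 24061, 23507 and 24015 with TGFb and 18479, 18842, 17967 and 18888 with STINGX and TGFb. The spread within a group was small, and no groups overlapped. Its log2 change was -0.090 ± 0.021 with TGFb (adjusted p = 0.00731, edgeR) and -0.37 ± 0.021 with the compound (adjusted p = 5.97e-08). In FPKM values neither change of MT-CO1 was called. With TGFb it was -0.15 (limma, adjusted p = 0.216 to 0.508), and with the compound -0.23 (limma, adjusted p = 0.0543 to 0.240). MT-CO2 stood at 10141, 9379, 8895 and 9727 CPM in control, 8382, 7822, 7863 and 8177 with TGFb and 5302, 5183, 5069 and 5384 with STINGX and TGFb, again in 3 groups apart. MT-CO2 fell by 0.24 ± 0.040 (log2) with TGFb (adjusted p = 5.83e-04, edgeR) and by 0.62 ± 0.040 with the compound (adjusted p = 1.46e-07). Its fall with TGFb was not called in FPKM values with no filter on low counts (adjusted p = 0.0818, limma). MT-CO3, the third core subunit, stood at 9660.3, 9568, 8612 and 9764 CPM in control, 9366, 8331, 8376 and 8569 with TGFb and 5360.4, 5402, 5078 and 5883 with STINGX and TGFb. Control and TGFb overlapped (log2 -0.12 ± 0.054, adjusted p = 0.134, edgeR), whereas the 4 libraries with the compound lay below all others (-0.67 ± 0.054, adjusted p = 1.13e-06).

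Within the mitochondrial messenger RNAs other than MT-ATP6, the makeup shifted when the compound was added. MT-CO2 made up 10.5 ± 0.453% of their counts in control, 9.59 ± 0.246% with TGFb and 8.15 ± 0.113% with STINGX and TGFb, with no overlap between groups. MT-CO3 made up 10.3 ± 0.432%, 10.3 ± 0.492% and 8.45 ± 0.356%, and its share with the compound lay below both other groups. MT-ND5, in contrast, made up 7.20 ± 0.434%, 7.37 ± 0.162% and 9.31 ± 0.174%, MT-ND4L 2.36 ± 0.0969%, 2.53 ± 0.10% and 2.85 ± 0.0774%, and MT-ND6 2.41 ± 0.113%, 2.25 ± 0.0961% and 2.61 ± 0.0433%. MT-ND1 made up 4.73 ± 0.120%, 4.86 ± 0.129% and 5.15 ± 0.0839%. For MT-ND5, MT-ND4L, MT-ND6 and MT-ND1 the libraries with the compound lay above all TGFb and control libraries. MT-ATP8 made up 2.37 ± 0.146%, 2.57 ± 0.0790% and 2.35 ± 0.0691%, with the compound below TGFb and overlapping with control. The shares of MT-ND4 (16.9 ± 0.0952%, 16.7 ± 0.296% and 17.0 ± 0.115%) overlapped between groups in every comparison. Shares within 1 sum depend on each other, so they are given as descriptions.

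Ratios of neighbouring genes within a library need no scaling and were tested. MT-ND6 per MT-ND5, the light-strand gene against its heavy-strand neighbour, was 0.336, 0.343, 0.328 and 0.334 in control, 0.312, 0.328, 0.297 and 0.285 with TGFb and 0.274, 0.283, 0.281 and 0.285 with STINGX and TGFb. Control lay above both other groups, which overlapped. The mean log2 ratio differed by -0.14 between TGFb and control and by -0.26 between STINGX with TGFb and control (adjusted p = 0.0490 for both, exact permutation), and by -0.12 between the treated groups (adjusted p = 0.0762, exact permutation). MT-ND4L per MT-ND4, 2 genes that share bases and are known to be carried on a single messenger RNA, was 0.140 ± 0.00601 in control, 0.152 ± 0.00855 with TGFb and 0.168 ± 0.00343 with STINGX and TGFb. The ratio was above all other libraries in the 4 with the compound, by 0.15 (log2) over TGFb and 0.26 over control (adjusted p = 0.0490 for both, exact permutation), while TGFb and control overlapped (0.12, adjusted p = 0.125, exact permutation).

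**Figure D3:**
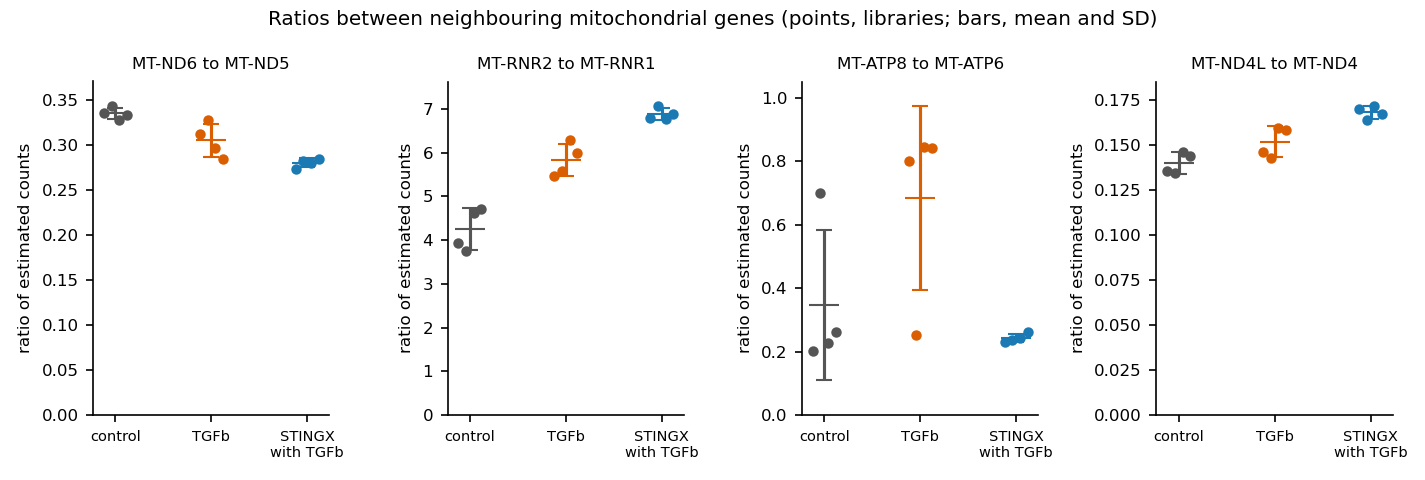
Ratios of estimated counts between 4 pairs of neighbouring genes; points are libraries, and bars give the mean and SD of 4. MT-RNR2 to MT-RNR1 rises in 3 groups that do not overlap, and MT-ATP8 to MT-ATP6 takes values from 0.70 to 0.84 in 4 libraries and from 0.20 to 0.26 in the other 8.

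Complex V, the ATP synthase, has its mitochondrial subunits on 1 shared messenger RNA, in the overlapping frames of MT-ATP8 and MT-ATP6. MT-ATP8 stood at 2025, 2050.1, 2179 and 2378 CPM in control, 2189, 2258, 2054 and 2132 with TGFb and 1459, 1476, 1519 and 1585 with STINGX and TGFb. Control and TGFb overlapped around the same mean (log2 0.00033 ± 0.051, adjusted p = 0.997, edgeR; its sign turns under most other settings), and the compound libraries lay below (-0.52 ± 0.051, adjusted p = 7.67e-06). MT-ATP6 was not called in any comparison: its log2 change was -0.92 ± 0.48 with TGFb (adjusted p = 0.202), 0.58 ± 0.48 with the compound (0.429) and -0.35 ± 0.48 against control (0.627), all by edgeR. That reading rests on TGFb replicate 2: without it, the change was -1.62 with TGFb (adjusted p = 0.00945) and 1.28 with the compound (adjusted p = 0.0267). MT-ATP8 per MT-ATP6 was 0.201, 0.699, 0.228 and 0.262 in control, 0.801, 0.251, 0.844 and 0.841 with TGFb and 0.229, 0.237, 0.244 and 0.262 with STINGX and TGFb. The same 4 libraries that are low in MT-ATP6 stand high in this ratio, so their MT-ATP8 counts did not fall with their MT-ATP6 counts.

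A nuclear copy of MT-ATP6 was looked at beside it, because reads of near-identical sequences can be assigned to either. MTATP6P1 lies on chromosome 1 (633696 to 634376, plus strand, GRCh38) and is identical to MT-ATP6 at 98.5% of its 681 bases, with a longest identical run of 141 bases. An aligned stretch of 120 bases is shown for both, with the single base that differs in capitals; from a read inside the lower-case part the 2 loci cannot be told apart.
MT-ATP6 stretch: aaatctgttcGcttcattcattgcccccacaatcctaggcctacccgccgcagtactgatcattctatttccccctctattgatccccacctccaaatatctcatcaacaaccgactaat
MTATP6P1 stretch: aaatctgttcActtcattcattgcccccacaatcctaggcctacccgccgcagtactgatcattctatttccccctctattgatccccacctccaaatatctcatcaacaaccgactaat
MTATP6P1 counts were 118644, 116389, 117071 and 127745 in control, 101774, 104651, 81889 and 86687 with TGFb and 83948, 85289, 69323 and 79937 with STINGX and TGFb. They show no jump in control replicate 2 or in TGFb replicates 1, 3 and 4, so their ratio to MT-ATP6 was 61.8% to 65.7% in those 4 libraries and 18.1% to 20.9% in the other 8. Adding the nuclear copies to the mitochondrial gene they copy left the calls at 11 lower, at 22 lower and 1 higher, and at 24 lower in the 3 comparisons. Why MT-ATP6 counts split was not tested.

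**Figure D4:**
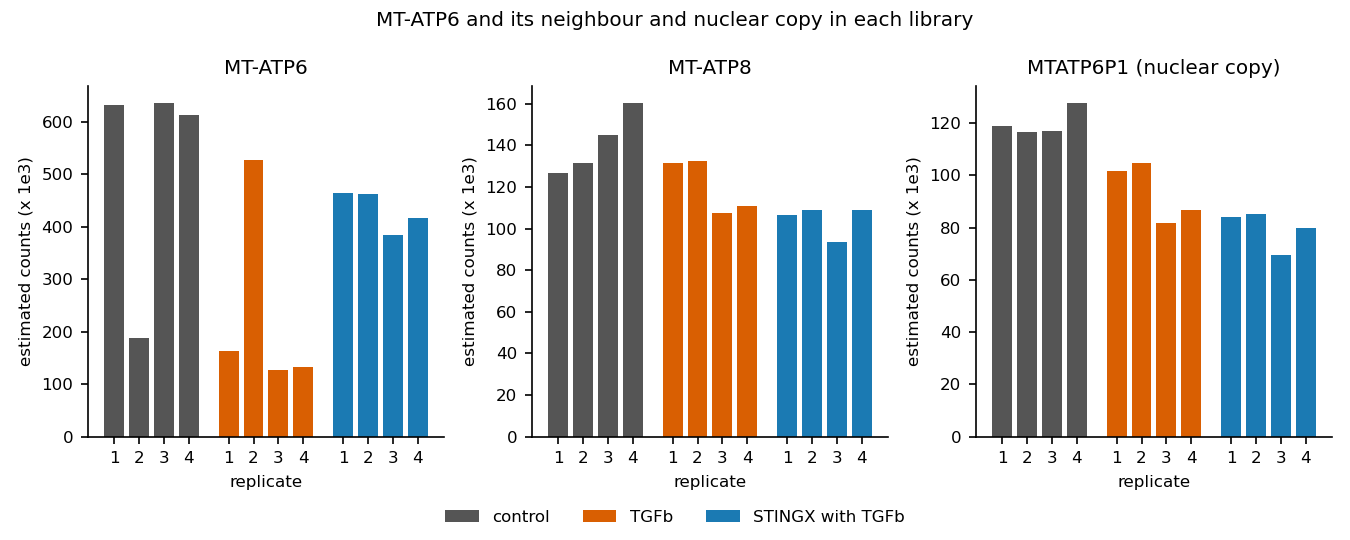
Estimated counts (axis in units of 1e3) of MT-ATP6, of its neighbour MT-ATP8 and of its nuclear copy MTATP6P1 in each of the 12 libraries (control grey, TGFb orange, STINGX with TGFb blue). MT-ATP6 is low in control replicate 2 and TGFb replicates 1, 3 and 4, and the other panels show no such drop.

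Nuclear copies of mitochondrial genes took few counts in all. Of 408 rows with such symbols, 79 had a count and 13 were tested. Their sum equalled 2.53% to 4.05% of the mitochondrial counts of a library, and the 3 highest, MTATP6P1, MTCO1P12 and MTND2P28, held 97.9% to 98.7% of it. MTCO1P12, identical to MT-CO1 at 98.6% of the aligned bases, varied within groups, from 105107, 105145, 67660 and 77667 counts in control to 36294, 57499, 49878 and 41995 with TGFb and 55339, 26467, 52844 and 60429 with STINGX and TGFb. Its control counts lay above all the others. MTATP6P1 itself had log2 changes of -0.13 ± 0.040 with TGFb (adjusted p = 0.0273, edgeR) and -0.55 ± 0.040 with the compound (adjusted p = 4.67e-07). MTND2P28 had -0.17 ± 0.10 (adjusted p = 0.249, edgeR) and -0.33 ± 0.10 (adjusted p = 0.0257). Reads of transcribed nuclear copies and misplaced reads of the mitochondrial genes cannot be told apart in these counts.

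Transfer RNA genes differed widely in level, and the strands differed with them. In control the median of the 8 light-strand genes was 543 FPKM and that of the 14 heavy-strand genes 49.9; with TGFb the medians were 453 and 50.3, and with STINGX and TGFb 452 and 42.8. Light-strand genes took 74.2% to 79.5% of transfer RNA counts in every library. High levels were those of 5 light-strand genes, MT-TC (1403 ± 55.3 FPKM in control), MT-TY (1090.2 ± 34.9), MT-TN (1042 ± 70.6), MT-TE (596 ± 30.3) and MT-TA (490.3 ± 38.6), and of 1 heavy-strand gene, MT-TL1 (527 ± 42.2). Of these, MT-TA, MT-TN, MT-TC and MT-TY lie side by side between positions 5587 and 5891, and MT-TE (14674 to 14742) lies next to MT-ND6. The light strand also held the lowest gene, MT-TQ (9.35 ± 1.45 FPKM), and MT-TS1 (19.3 ± 2.60). Mature transfer RNAs and reads of uncut precursors cannot be told apart here, and the unknown strand setting applies to them too.

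The transfer RNA genes that the results turn on are shown 5′ to 3′ on their own strand, from GENCODE release 29 (GRCh38), with the anticodon in capitals. They are the highest (MT-TC), its neighbour MT-TY and MT-TE, which fell with TGFb, MT-TS1, which fell furthest, and MT-TL1, the highest of the heavy strand.
MT-TC: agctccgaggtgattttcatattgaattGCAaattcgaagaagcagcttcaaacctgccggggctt
MT-TY: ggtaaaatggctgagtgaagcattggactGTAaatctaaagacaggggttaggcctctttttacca
MT-TE: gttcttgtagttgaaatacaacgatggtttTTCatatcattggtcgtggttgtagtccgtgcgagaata
MT-TS1: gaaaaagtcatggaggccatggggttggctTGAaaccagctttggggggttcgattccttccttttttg
MT-TL1: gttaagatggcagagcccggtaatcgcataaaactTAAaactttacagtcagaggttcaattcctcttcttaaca
Their anticodons read the codons of cysteine, tyrosine, glutamate, serine (UCN) and leucine (UUR).

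With TGFb, where 12.8% of all genes tested were called lower, 3 light-strand transfer RNAs fell. Another, MT-TP, was not called (-0.20 ± 0.079, adjusted p = 0.0906, edgeR) but was called lower by library size alone, by upper quartile scaling and in FPKM values (-0.26 to -0.24, adjusted p = 0.00566 to 0.0440). MT-TE stood at 48.3, 47.3, 49.9 and 50.9 CPM in control and 41.6, 36.0, 41.6 and 38.2 with TGFb, groups that do not overlap (log2 -0.32 ± 0.058, adjusted p = 0.00125, edgeR). MT-TY stood at 84.9, 87.5, 88.0 and 83.3 and 74.0, 82.7, 74.8 and 74.4 CPM, also apart (log2 -0.17 ± 0.046, adjusted p = 0.0160, edgeR). MT-TS1, at few counts (87 to 118 in control and 48 to 67 with TGFb), changed by -0.68 ± 0.20 (adjusted p = 0.0252, edgeR). The call of MT-TS1 was lost without control replicate 1 (adjusted p = 0.0510), 2 (0.0693) or 3 (0.0531) or TGFb replicate 1 (0.0808) or 4 (0.0533). All 14 heavy-strand transfer RNAs missed the threshold, 12 of them with a log2 change above 0, from 0.022 for MT-TR to 0.34 for MT-TI; MT-TR and MT-TV turned below 0 by library size alone, at -0.043 and -0.034. In CPM, 13.9% of all genes tested stood higher in every TGFb library than in every control library. MT-TI, MT-TD and MT-TK were among them (adjusted p = 0.0682, 0.333 and 0.339 by edgeR). The groups overlapped for all 3 in FPKM values. There MT-TI reached 49.2 in control and began at 48.1 with TGFb, MT-TD 39.5 and 38.1, and MT-TK 33.7 and 32.8. The median log2 change was 0.10 over the 14 heavy-strand transfer RNAs, against -0.14 for the 8 light-strand transfer RNAs; the difference between the strands was not tested.

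With the compound, 13.8% of all genes tested were called lower than with TGFb. Among transfer RNAs, 9 of 14 heavy-strand and 2 of 8 light-strand genes were lower. MT-TL1 stood at 47.1, 50.3, 53.0 and 52.3 CPM with TGFb and 37.6, 35.8, 37.6 and 37.6 with STINGX and TGFb (log2 -0.45 ± 0.057, adjusted p = 7.26e-05, edgeR). MT-TD, for aspartate, had the largest called change (-0.63 ± 0.11, adjusted p = 0.00103). MT-TH, MT-TS2 and MT-TL2, which lie in a row between MT-ND4 and MT-ND5, had similar values (-0.43 ± 0.086, -0.45 ± 0.085 and -0.43 ± 0.089). MT-TF, MT-TI, MT-TG and MT-TT were the other heavy-strand calls, at -0.52, -0.38, -0.38 and -0.36. Each of these 4 was lost when single libraries were left out: MT-TF without TGFb replicate 1 or 3 or STINGX with TGFb replicate 4 (adjusted p = 0.0682, 0.0571 and 0.0632), MT-TG without TGFb replicate 2 or STINGX with TGFb replicate 1 or 2 (0.0847, 0.0781 and 0.0581), MT-TI without any single TGFb replicate or STINGX with TGFb replicate 2 or 3 (0.0512 to 0.118), and MT-TT when any 1 of 10 libraries was left out, all but control replicates 1 and 3 (0.0542 to 0.106). On the light strand MT-TC (-0.23 ± 0.060; -0.089 by library size alone, adjusted p = 0.275) and MT-TY (-0.28 ± 0.046) fell. MT-TV, MT-TW, MT-TK, MT-TM and MT-TR of the heavy strand and MT-TQ, MT-TA, MT-TN, MT-TS1, MT-TE and MT-TP of the light strand were not called, with log2 changes from -0.50 (MT-TQ) to 0.057 (MT-TP). In FPKM values MT-TP was called higher (0.20, adjusted p = 0.0202 to 0.0357, limma), the second higher call of those fits. Among the genes not called, MT-TM, MT-TN and MT-TE were called lower without 1 library (adjusted p = 0.0282 when STINGX with TGFb replicate 4 was left out, 0.0298 without replicate 2 of that group and 0.0412 without TGFb replicate 2).

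With STINGX and TGFb, 17.0% of all genes tested were called lower than in control. Of the transfer RNAs, 11 were lower, 7 of the heavy strand and 4 of the light strand. MT-TS1 changed most (-1.11 ± 0.21, adjusted p = 0.00107, edgeR), at 87 to 118 counts in control and 39 to 64 with the compound. MT-TE (-0.46 ± 0.058), MT-TY (-0.45 ± 0.046) and MT-TC (-0.33 ± 0.060) were the other light-strand genes. Heavy-strand calls were MT-TF (-0.56 ± 0.15), MT-TD (-0.48 ± 0.11), MT-TT (-0.44 ± 0.12), MT-TH (-0.35 ± 0.085), MT-TS2 (-0.35 ± 0.084), MT-TL1 (-0.35 ± 0.057) and MT-TL2 (-0.30 ± 0.089). The 11 transfer RNAs not called had log2 changes from -0.31 (MT-TQ) to -0.044 (MT-TI, above 0 by library size alone, at 0.033). MT-TA, MT-TN and MT-TM passed the threshold without 1 library (adjusted p = 0.0186 and 0.0171 when STINGX with TGFb replicate 2 was left out, and 0.0486 for replicate 4 of that group), and MT-TA and MT-TN also by upper quartile scaling (0.0478 and 0.0280).

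**Figure D5:**
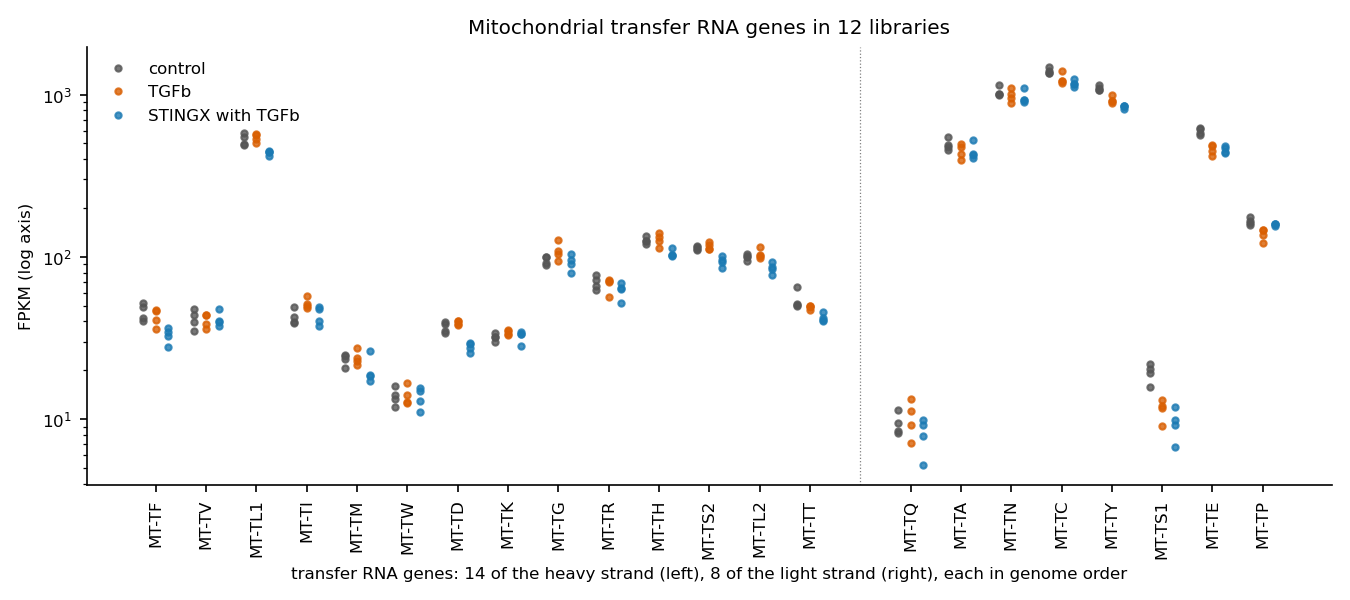
FPKM on a log axis of the 14 heavy-strand (left) and 8 light-strand (right) transfer RNA genes; each point is 1 library of control (grey), TGFb (orange) or STINGX with TGFb (blue). Light-strand MT-TC, MT-TY and MT-TN lie near 1000 FPKM, and MT-TL1 is the highest heavy-strand gene.

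The respiratory complexes are completed by subunits encoded in the nucleus, which are given beside the mitochondrial ones. Among 37 nuclear genes of complex I, 6 fell with TGFb, 8 were lower with the compound than with TGFb, and 20 were lower than control with both. Of 9 nuclear genes of complex III the counts were 3, 5 and 8, of 11 genes of complex IV 1, 5 and 7, and of 18 genes of complex V 5, 9 and 16. Complex II, which has no mitochondrial gene, had 1, 2 and 3 of 4. None of these genes rose in any comparison (edgeR, adjusted p under 0.05). Of all genes tested, 13.2%, 13.7% and 17.2% rose and 12.8%, 13.8% and 17.0% fell in the 3 comparisons. Among genes with a mean of at least 100 CPM, 17.0%, 37.8% and 35.9% fell. Median log2 changes for the compound against TGFb were -0.15 for nuclear complex I and -0.24 for both nuclear complex III and IV, and -0.25 for nuclear complex V, where the mitochondrial genes had -0.30 (7 genes), -0.40 (MT-CYB), -0.62 (3 genes) and 0.031 (MT-ATP8 at -0.52 and MT-ATP6 at 0.58), and all genes tested 0.0063. For TGFb against control the medians of the 5 nuclear lists lay between -0.21 (complex IV) and -0.052 (complex II), and for STINGX with TGFb against control between -0.50 (complex IV) and -0.29 (complex I), beside -0.0040 and 0.0042 over all genes. For the compound against TGFb the largest falls were those of NDUFB9 in complex I (-0.77 ± 0.18, adjusted p = 0.00655), SDHA in complex II (-0.43 ± 0.045), CYC1, which encodes cytochrome c1, in complex III (-0.45 ± 0.078), COX8A in complex IV (-0.80 ± 0.083, adjusted p = 1.11e-05) and ATP5MF in complex V (-0.49 ± 0.064).

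Nuclear genes that make and cut mitochondrial RNA are given for comparison. Of 23 genes of mitochondrial transcription and DNA replication, 5 rose and 2 fell with TGFb, 2 rose and 2 fell when the compound was added, and 5 rose and 5 fell with both against control (of all genes tested, 13.2%, 13.7% and 17.2% rose and 12.8%, 13.8% and 17.0% fell). Their median log2 changes were 0.079, -0.11 and 0.0028 in these comparisons. With TGFb the largest rise was that of PPRC1, a coactivator of nuclear genes for mitochondria (0.54 ± 0.066, adjusted p = 5.20e-05, edgeR), and the largest fall that of TFB1M, which methylates the 12S ribosomal RNA (-0.49 ± 0.088, adjusted p = 0.00103). TFB1M is the enzyme that modifies the product of MT-RNR1, and its mean was 20.2 ± 2.13 CPM in control, 14.3 ± 1.02 with TGFb and 13.3 ± 0.678 with STINGX and TGFb. With the compound, TOP1MT, the mitochondrial topoisomerase, rose most (0.47 ± 0.10) and POLG2, the accessory subunit of the mitochondrial DNA polymerase, fell most (-0.45 ± 0.094). Of 29 matched genes of mitochondrial RNA processing and turnover, 6 rose and 2 fell with TGFb, 1 rose and 4 fell with the compound, and 9 rose and 3 fell with both, with medians of 0.10, -0.00052 and 0.15. TRNT1, which adds CCA to transfer RNAs, rose with TGFb (0.57 ± 0.12, adjusted p = 0.00397, edgeR). PDE12, which removes poly(A) from mitochondrial RNA, rose with the compound (0.27 ± 0.061), and HSD17B10, a subunit of the mitochondrial RNase P that cuts transfer RNAs free, fell (-0.43 ± 0.088, adjusted p = 0.00277). TFB1M stands in both lists.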

How the data were processed

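The authors deposited estimated counts and FPKM values per gene and transcript for 12 libraries of LX2 cells. Per the labels' protocols, poly(A) RNA was purified in 2 rounds with oligo-dT beads and sequenced in paired ends from stranded libraries. Tools named are cutadapt, HISAT2, StringTie and edgeR on GRCh38, per the submitters' processing notes, with no versions; the setting for strand is likewise not given in the sources used here. Counts as deposited are whole estimated counts derived from coverage. FPKM values are the authors' own and were used for levels and an alternative test.

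Groups were tested with edgeR 4.0.16 (R 4.3.3), quasi-likelihood, all 12 libraries in 1 fit (9 residual degrees of freedom), TMM scaling, genes kept by filterByExpr (counts of 10 and 15 as minimum and total), Benjamini-Hochberg over 21328 genes, adjusted p under 0.05. Between TGFb and control, simulated 4-fold changes were recovered for 39 of 49 genes and 1.5-fold changes for 10 of 48, over 20622 genes; the other comparisons gave 34 of 47 and 13 of 49, and 40 of 48 and 21 of 50 (20610 genes). SEs are the log2 change over the square root of F. CPM are TMM-scaled. Ratios were compared by exact permutation, two-sided. limma 3.58.1 and DESeq2 1.42.0 served alternatives.

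Nothing says that replicates were separate cultures, so p-values measure the spread between these libraries, which may be technical. The members, gene lists and rules were chosen with earlier results of these data known. All mitochondrial genes are described; of each nuclear list, the largest called rise and fall at a mean of 2 CPM or more in a comparison, and the 3 highest nuclear copies. All 37 gene positions equal those of GENCODE release 29.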

Additional observations from a re-analysis of the deposited data

Results flagged for a closer look

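Within groups of 4 libraries, 18 of 171 sets of values had 1 library whose gap to the nearest of the others exceeded Dixon's 95% limit (which chance passes in about 1 in 20 groups). MT-ATP6 accounts for 6 of them. Control replicate 2 stood at 2933 CPM where the other controls had 9067 to 10094 CPM, and TGFb replicate 2 at 8990 where the other TGFb libraries had 2435 to 2733. The same libraries had complex V shares of 0.489% (others 1.16% to 1.19%) and 1.06% (others 0.432% to 0.467%) of all counts. Their ratios of MT-ATP8 to MT-ATP6 were 0.699 (others 0.201 to 0.262) and 0.251 (others 0.801 to 0.844). The cause was not tested.

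Among the other messenger RNAs, MT-ND2 was high in control replicate 4, at 5976 CPM (others 5743 to 5769), MT-CO1 low in TGFb replicate 3, at 23507 (others 23973 to 24061), and MT-CO3 low in control replicate 3, at 8612 (others 9568 to 9764). TGFb replicate 2 was high in the neighbouring transfer RNAs MT-TC, at 116 CPM (others 98.1 to 98.9), and MT-TY, at 82.7 (others 74.0 to 74.8). MT-TN was high in STINGX with TGFb replicate 2, at 91.1 CPM (others 74.0 to 76.5), and MT-TL1 low there, at 35.8 (others 37.6). MT-TM stood at 1.71 CPM in control replicate 1 (others 1.96 or more) and at 2.03 in STINGX with TGFb replicate 4 (others 1.33 to 1.43). MT-TR stood at 4.53 CPM in TGFb replicate 3 (others 5.75 to 5.79) and MT-TT at 5.24 in control replicate 1 (others 3.82 to 4.03). Light-strand transfer RNAs took 0.0416% of all counts in control replicate 3 (others 0.0380% to 0.0385%).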

How the results depend on the processing

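Of the 37 genes, the number called lower stayed within 1.5 times under every scaling, filter and tool tried with TGFb (8 to 16, against 11) and against control with both (22 to 26, against 24). For the compound against TGFb (22 lower, 1 higher), limma gave 13 lower and 2 higher on log2(FPKM + 1) and log2(FPKM + 0.1), and 10 and 2 with no filter. Over all genes in that comparison, higher and lower calls were 4997 and 1890 by library size alone, 4924 and 1921, 4860 and 1913, and 4420 and 1750 in these FPKM fits. DESeq2 called 1 gene higher with TGFb (MT-TI), and library size alone 1 higher with both against control (MT-RNR2). Without 1 library, lower calls were 9 to 13, 19 to 22 and 22 to 25, and higher calls for the compound 1 to 2. As a share of the FPKM total the mitochondrial genome took 35.0%, 32.5% and 29.9%; without MT-ATP6 its share of counts was 9.93%, 8.65% and 7.60%.

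Whether equal replicate numbers mark paired libraries was not settled. Same-numbered libraries correlated at -0.038 to 0.045 in their deviations from the group means, and different-numbered ones at -0.041 to 0.042. In 5 of 12 cases (a library within a comparison) the best correlation was with the same number. These values over all genes tested cannot exclude a pairing. With a replicate block 10, 19 and 24 genes were lower. Without 1 library, log2 differences in ratio ranged from -0.17 to -0.10, -0.15 to -0.085 and -0.27 to -0.25 (MT-ND6 to MT-ND5, with TGFb, compound against TGFb, and both against control), 0.40 to 0.51, 0.21 to 0.28 and 0.64 to 0.75 (MT-RNR2 to MT-RNR1), 0.12 to 0.17 and 0.24 to 0.29 (MT-ND4L to MT-ND4, the last 2 comparisons) and -1.77 to -1.19 (MT-ATP8 to MT-ATP6, compound against TGFb). With 3 against 4 libraries, 40 exact permutation values lost the threshold that they passed with all libraries (adjusted p = 0.0571 to 0.103). Every ratio difference called with all libraries was lost when any 1 control or STINGX with TGFb library it uses was left out. The 12 tests are adjusted together, and with so few libraries their p-values take few values. An adjusted p therefore also depends on how many of the 12 tests reach the smallest p. Such a loss alone does not show that a ratio rests on the library left out. For the compound against TGFb, MT-ATP8 to MT-ATP6 passed without TGFb replicate 2, and MT-ND6 to MT-ND5 without TGFb replicate 4 (adjusted p = 0.0429 for both, exact permutation). MT-ATP8 to MT-ATP6, both against control, ranged from -0.52 to 0.083, the last without control replicate 2.

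Signs turned for 14 genes, none of them called in the comparison concerned under the reported settings (MT-RNR2, MT-TP and MT-TE were called there under others). With TGFb, MT-ATP8 was -0.0016, -0.065, -0.041, -0.0013, -0.0100, -0.0039, -0.058 and -0.013, and -0.030 to 0.049 without 1 library; MT-TV -0.034, -0.011, -0.022 and -0.023, and -0.038 to 0.095 without 1 library; MT-TR -0.043, -0.019, -0.046 and -0.047, and -0.019 to 0.10 without 1 library; MT-TN -0.080 to 0.027 without 1 library; MT-TF -0.11 to 0.030 without 1 library, MT-ND4L -0.039 to 0.020 without 1 library, MT-TW -0.015 to 0.15 without 1 library and MT-TT -0.13 to 0.032 without 1 library. For the compound against TGFb, MT-TV was 0.024, 0.021 and 0.022, MT-ND5 0.090 and 0.087, MT-TE 0.0019 and 0.0015 and MT-TP -0.00011 to 0.094 without 1 library. For both against control, MT-RNR2 was -0.031, and -0.0097 to 0.045 without 1 library, MT-TI 0.033 and 0.027, and -0.10 to 0.023 without 1 library and MT-TK 0.024 and 0.023, and -0.090 to 0.0099 without 1 library. The cause was not tested.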
